A study of Mus musculus with 21 samples.

Results

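Saa3, Lcn2, Ptx3, Hp, Cp and Slpi are 6 genes of secreted proteins that take part in the acute-phase response or in innate defence. They were chosen by gene symbol from the 23250 genes of the expression table, and all 6 were found and passed the filter on low counts. These genes and the related lists below were chosen with earlier results of these data known. The series set out to learn what soluble mannose receptor does to macrophages without a receptor of their own. Bone marrow of mice on the C57BL/6J background was cultured for 7 days with 2.5% supernatant of a cell line that makes GM-CSF, under which marrow cells become macrophage-like. All groups shared this origin and, per the series design, the deficiency in the mannose receptor encoded by Mrc1. RNA was sequenced from 21 libraries in 7 groups of 3: an untreated group at 0 h and groups exposed to FcMR or to an isotype control for 4, 12 or 24 h. FcMR joins the extracellular region of the mannose receptor to the Fc region of human IgG1. The isotype control received no further description in the labels, and neither did the age, sex or number of the mice or any pooling.

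An untreated group exists at 0 h only, so the time spent in culture and the isotype control protein cannot be told apart in any comparison with untreated cells. Library totals ran from 5532225 to 66729533 counts, and 3 counts corresponded to 0.045 to 0.542 CPM (counts scaled to one common sequencing depth). Mrc1 had 0 to 11 counts in the 21 libraries. All 8 macrophage markers examined passed the filter, at 20500 to 35400 CPM in sum, most of it Lyz2 (group means of 17900 to 28200 CPM). Fcgr1 had the lowest group mean of the 8, 58.7 CPM, and at 24 h 2 of them were higher and 4 lower with FcMR than with isotype. All 8 dendritic cell markers examined passed too, at 1350 to 1880 CPM in sum. Eosinophil markers summed to 607 to 806 CPM in untreated libraries. At 24 h they summed to 77.0 to 112 CPM with isotype and 59.9 to 88.2 with FcMR. The part of such cells in the results was not tested. Nothing in the labels says that the 3 libraries of a group came from separate cultures or mice, so p-values measure the spread between these libraries, which may be technical. A change in a level can come from the number of cells that express a gene or from the RNA per cell, and these cannot be told apart in bulk RNA.

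The acute-phase response is the change in plasma proteins that follows infection or injury. The liver makes most of these proteins, but macrophages and neutrophils make some of them locally, and cytokines such as IL-6 and IL-1 act on their genes through transcription factors of the STAT, C/EBP and NF-kappaB families. Serum amyloid A3, encoded by Saa3, is the extrahepatic serum amyloid A of mice. The others differ in what they bind: lipocalin 2 (Lcn2) holds bacterial siderophores, pentraxin 3 (Ptx3) is a soluble pattern recognition molecule that binds complement C1q, haptoglobin (Hp) binds free haemoglobin, ceruloplasmin (Cp) carries copper and oxidises ferrous iron, and secretory leukocyte protease inhibitor (Slpi) blocks neutrophil elastase and cathepsin G.

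With FcMR all 6 genes were higher than with isotype at 24 h, by 1.99-fold for Ptx3 to 8.2-fold for Saa3. At 12 h the genes higher with FcMR were the same except for Hp, and at 4 h they were Saa3, Lcn2, Ptx3 and Slpi. Saa3 stood apart in its range, from 8.24 ± 0.376 CPM (SD, n = 3) in untreated cells to 4129 ± 873 CPM with FcMR at 24 h. Ptx3 peaked at 4 h and fell afterwards in both treatments, whereas by group means Saa3, Hp and Slpi were highest with FcMR at 24 h and Lcn2 and Cp with FcMR at 12 h. The FcMR libraries of 12 and 24 h overlapped for Lcn2, Hp and Slpi.

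The promoter windows are shown because a short match was seen in every gene for which a window was found. RefSeq windows (build GRCm38.p6) that run from 250 bases before to 50 bases after a start site were found for 5 of the 6 genes. They were searched on both strands for a C/EBP motif (TTGCNNAA), a STAT motif (TTCNNNGAA), an AP-1 motif (TGANTCA) and the kappaB consensus. The C/EBP letters were found in a window of each of the 5 genes, in 1 of the 2 windows in the case of Cp, and in 10.8% of all 32851 windows. That share counts windows, not genes, and this motif was singled out after the search. Each stretch below is read 5′ to 3′ on the strand of the gene, with the C/EBP match in capitals, and positions count from the RefSeq start site.
Saa3, chr7:46715752-46715791, minus strand, match from -99 to -92: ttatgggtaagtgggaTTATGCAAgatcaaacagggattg
Lcn2, chr2:32387932-32387971, minus strand, match from -216 to -209: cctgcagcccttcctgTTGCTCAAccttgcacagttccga
Ptx3, chr3:66219814-66219853, plus strand, match from -57 to -50: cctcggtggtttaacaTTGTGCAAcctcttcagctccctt
Cp, chr3:19957163-19957202, plus strand, match from -70 to -63: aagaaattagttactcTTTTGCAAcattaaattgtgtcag
Slpi, chr2:164356725-164356757, minus strand, match from -241 to -234: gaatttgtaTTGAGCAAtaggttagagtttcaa
The match lay within 100 bases of the start site in Saa3, Ptx3 and Cp and further upstream in Lcn2 and Slpi.

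Ptx3 was the only one of these genes whose window also held the kappaB consensus, which 4.51% of all windows hold. Its whole window (chr3:66219637-66219936, plus strand) is printed with the C/EBP match and a pair of overlapping kappaB matches, from -1 to 10, in capitals.
Ptx3 window: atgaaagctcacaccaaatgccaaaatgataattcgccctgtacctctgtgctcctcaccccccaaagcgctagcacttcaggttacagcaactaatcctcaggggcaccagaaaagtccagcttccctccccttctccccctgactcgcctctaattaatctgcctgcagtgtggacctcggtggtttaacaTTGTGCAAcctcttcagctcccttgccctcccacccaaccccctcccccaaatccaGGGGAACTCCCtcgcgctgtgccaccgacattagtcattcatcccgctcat
The other window of Cp, which starts further upstream, held an AP-1 match from -177 to -171, a motif found in 7.81% of all windows. No window of the 5 genes held the STAT letters, found in 8.3% of all windows. A match of letters is not a binding site, and no binding was measured here.

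Saa3 (ENSMUSG00000040026.8, GRCm38 chromosome 7, 46711998 to 46715700, minus strand) encodes an apolipoprotein that rides on high-density lipoprotein and attracts leukocytes. Levels are given as CPM after TMM scaling, in the order of replicates 1, 2 and 3. The untreated libraries held 8.55, 7.82 and 8.34 CPM. The isotype libraries held 138, 93.8 and 173 CPM at 4 h, 461, 485 and 565 at 12 h, and 456, 514 and 540 at 24 h. The FcMR libraries held 428, 504 and 479 CPM at 4 h, 2311, 2664 and 3055 at 12 h, and 3754, 3505 and 5127 at 24 h. Every FcMR library was above every isotype library of its time, and the isotype libraries of 12 h and 24 h overlapped. The FcMR libraries of 4 h overlapped the isotype libraries of 12 and 24 h.

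The log2 difference between FcMR and isotype was 1.8 (SE 0.184) for Saa3 at 4 h, with an adjusted p of 2.97e-06 from edgeR's quasi-likelihood test with Benjamini-Hochberg adjustment over 13468 genes. It was 2.41 (SE 0.186, edgeR adjusted p 7.57e-08) at 12 h and 3.04 (SE 0.191, edgeR adjusted p 2.73e-09) at 24 h. Saa3 was also higher in isotype-treated than in untreated cells, by 16.4-fold in the means at 4 h and 61.1-fold at 24 h. To rank genes against each other, levels were scaled per length of all annotated exons of a gene merged, 2606 bases for Saa3. No single transcript's length was used. On this scale the rank of Saa3 among the 23250 genes went from 7563 in untreated cells to 241 with isotype and 24 with FcMR at 24 h. Saa3 made up 2.73% to 2.94% of the summed CPM of the 6 genes in untreated libraries and 75.7% to 80.4% with FcMR at 24 h. These are shares of counts, not corrected for the lengths of the genes.

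**Figure D1:**
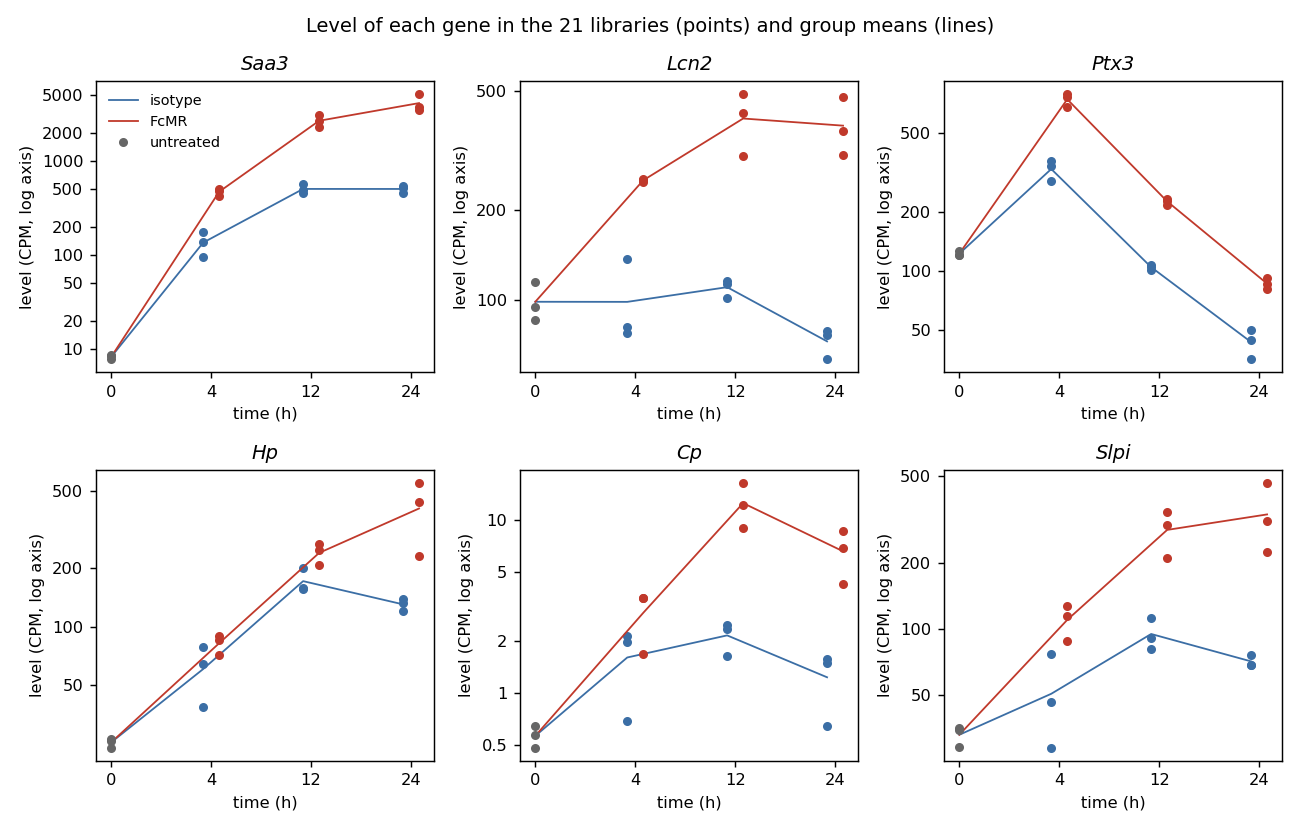
Level of the 6 genes (CPM, log axis) in each library (points) and as group means (lines) at 0, 4, 12 and 24 h, with times spaced evenly; untreated libraries are grey, isotype blue and FcMR red. The FcMR and isotype points overlap only for Hp and Cp at 4 h, and Ptx3 alone falls from 4 h on in both treatments.

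Lcn2 (ENSMUSG00000026822.14, GRCm38 chromosome 2, 32384633 to 32388252, minus strand) was the one of the 6 that was not called in any comparison of isotype with untreated cells. Its levels in untreated libraries were 95.2, 86.3 and 115 CPM. With isotype they were 81.3, 77.8 and 138 CPM at 4 h, 114, 102 and 117 at 12 h, and 63.9, 76.4 and 78.8 at 24 h. With FcMR they were 252, 249 and 253 CPM at 4 h, 304, 422 and 486 at 12 h, and 366, 306 and 475 at 24 h. The FcMR libraries lay above all isotype and untreated libraries at each time, while isotype libraries of 4 and 12 h overlapped the untreated ones and those of 24 h lay below them.

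FcMR exceeded isotype for Lcn2 by 1.34 on the log2 scale (SE 0.211, edgeR adjusted p 0.000223) at 4 h. The difference was 1.87 (SE 0.212, edgeR adjusted p 5.71e-06) at 12 h and 2.39 (SE 0.218, edgeR adjusted p 2.66e-07) at 24 h. The log2 differences of isotype from untreated cells for Lcn2 were 0.0032 (SE 0.208), 0.16 (SE 0.207) and -0.44 (SE 0.209), with edgeR adjusted p of 0.996, 0.565 and 0.103. The sign of the first of these turned in 9 alternative settings and with any of 3 single libraries left out, and the negative difference at 24 h was called in 5 alternatives, among them the fit of the 6 libraries alone (-0.40).

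Ptx3 (ENSMUSG00000027832.5, GRCm38 chromosome 3, 66219910 to 66225805, plus strand) had the earliest peak. It held 126, 120 and 120 CPM in untreated libraries. Isotype libraries held 340, 285 and 364 CPM at 4 h, 104, 101 and 107 at 12 h, and 44.3, 35.5 and 49.8 at 24 h. FcMR libraries held 679, 771 and 792 CPM at 4 h, 232, 217 and 227 at 12 h, and 80.2, 85.6 and 91.7 at 24 h. No group of Ptx3 overlapped its neighbour in the order of means, which ran from isotype at 24 h through FcMR at 24 h, isotype at 12 h, untreated, FcMR at 12 h and isotype at 4 h to FcMR at 4 h.

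The difference between FcMR and isotype stayed close to a doubling for Ptx3, at 1.18 (SE 0.108, edgeR adjusted p 9.24e-07), 1.11 (SE 0.108, edgeR adjusted p 9.55e-07) and 0.99 (SE 0.111, edgeR adjusted p 2.98e-06) on the log2 scale at 4, 12 and 24 h. Against untreated cells, Ptx3 was higher with isotype at 4 h by a log2 difference of 1.43 (SE 0.109, edgeR adjusted p 1.09e-08). At 24 h the log2 difference of isotype-treated from untreated cells was -1.50 (SE 0.111, edgeR adjusted p 6.31e-09), and the FcMR libraries of 24 h also lay below all untreated libraries. Ptx3 overlaps Veph1 on the opposite strand, which had 0 to 10 counts in any library.

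Slpi (ENSMUSG00000017002.14, GRCm38 chromosome 2, 164354070 to 164389095, minus strand) held 35.4, 29.1 and 34.6 CPM in untreated libraries. With isotype it held 46.4, 28.9 and 77.2 CPM at 4 h, 81.5, 91.4 and 113 at 12 h, and 68.8, 69.0 and 76.5 at 24 h. With FcMR it held 88.7, 115 and 128 CPM at 4 h, 211, 301 and 342 at 12 h, and 313, 225 and 466 at 24 h. FcMR and isotype libraries of one time did not overlap, but the isotype libraries of 4 h spread over the untreated range, and the FcMR libraries of 12 and 24 h overlapped each other.

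Slpi was higher with FcMR than with isotype by 1.11 on the log2 scale at 4 h (SE 0.294), with an edgeR adjusted p of 0.0133. That call was lost in edgeR without isotype 4 h replicate 1, where the difference was 1.04 with an adjusted p of 0.0565, and in a fit of only the 6 libraries compared, where the adjusted p was 0.113. At 12 h the difference was 1.58 (SE 0.29, edgeR adjusted p 0.000789) and at 24 h 2.23 (SE 0.298, edgeR adjusted p 2.42e-05). Isotype libraries were above untreated ones by 1.53 (SE 0.295, edgeR adjusted p 0.000418) at 12 h and 1.11 (SE 0.295, edgeR adjusted p 0.00532) at 24 h. At 4 h the difference of isotype from untreated was 0.63 (SE 0.296, edgeR adjusted p 0.106), and it was called without isotype 4 h replicate 2, at 0.88 with an edgeR adjusted p of 0.0204. The annotation places the microRNA gene Mir7678 within Slpi on the same strand.

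Hp (ENSMUSG00000031722.10, GRCm38 chromosome 8, 109575128 to 109579172, minus strand) held 26.0, 24.0 and 26.6 CPM in untreated libraries. Its isotype levels were 64.8, 38.8 and 78.6 CPM at 4 h, 201, 157 and 157 at 12 h, and 132, 121 and 139 at 24 h. Its FcMR levels were 89.5, 85.8 and 71.9 CPM at 4 h, 207, 248 and 265 at 12 h, and 436, 232 and 548 at 24 h. Isotype libraries were above all untreated libraries at every time, and the treatments overlapped at 4 h. At 12 and 24 h the lowest FcMR library exceeded the highest isotype library, at 12 h by 207 to 201 CPM.

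Hp differed between FcMR and isotype by 0.44 (SE 0.251, edgeR adjusted p 0.261) at 4 h and 0.48 (SE 0.245, edgeR adjusted p 0.227) at 12 h on the log2 scale, neither of which passed the test. At 24 h the difference was 1.63 (SE 0.251, edgeR adjusted p 0.000104). Isotype exceeded untreated cells for Hp by 1.26 (SE 0.258) at 4 h, 2.75 (SE 0.265) at 12 h and 2.35 (SE 0.262) at 24 h, with edgeR adjusted p of 0.000918, 1.78e-07 and 1.1e-06. A correction for GC content moved the 12 h difference between FcMR and isotype to 0.67, which was then called.

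Cp (ENSMUSG00000003617.16, GRCm38 chromosome 3, 19957054 to 20009145, plus strand) was the scarcest of the 6, with 5 to 237 counts in a library. Untreated libraries held 0.486, 0.644 and 0.572 CPM, and the 5 counts of replicate 1 give a 95% exact binomial interval of 0.175 to 1.26 CPM before TMM scaling. Isotype libraries held 2.15, 1.98 and 0.695 CPM at 4 h, 2.36, 2.49 and 1.64 at 12 h, and 1.57, 1.5 and 0.644 at 24 h. FcMR libraries held 3.54, 3.54 and 1.68 CPM at 4 h, 16.4, 12.2 and 9.03 at 12 h, and 6.89, 8.71 and 4.27 at 24 h. Replicate 3 was the lowest library in all 6 treated groups, and the treatments overlapped only at 4 h. The labels mention no molecular identifiers, so such intervals and the levels given for 3 counts describe counting error alone.

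For Cp the difference between FcMR and isotype was 0.97 (SE 0.42, edgeR adjusted p 0.124) at 4 h. It was called in edgeR with GC correction, at 1.12 with an adjusted p of 0.018. The difference was 2.58 (SE 0.364, edgeR adjusted p 5.67e-05) at 12 h and 2.41 (SE 0.401, edgeR adjusted p 0.000232) at 24 h on the log2 scale. Isotype exceeded untreated cells by 1.41 (SE 0.493, edgeR adjusted p 0.0328) at 4 h and 1.83 (SE 0.438, edgeR adjusted p 0.00262) at 12 h, and by 1.11 (SE 0.485, edgeR adjusted p 0.0749) at 24 h. The 4 h call was lost when any of 5 single libraries was left out, namely each untreated library and isotype 4 h replicates 1 and 2, with a range of 1.10 to 1.82 over such fits. The 24 h difference from untreated cells was called without isotype 24 h replicate 3, at 1.39 with an edgeR adjusted p of 0.0365. With the authors' normalized values the 4 h difference between FcMR and isotype was 0.06 and the 12 h difference between isotype and untreated 1.14, neither called. Cp overlaps Hps3 on the opposite strand, whose group means of 26.9 to 44.7 CPM were above those of Cp; the labels state no strand-specific counting.

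**Figure D2:**
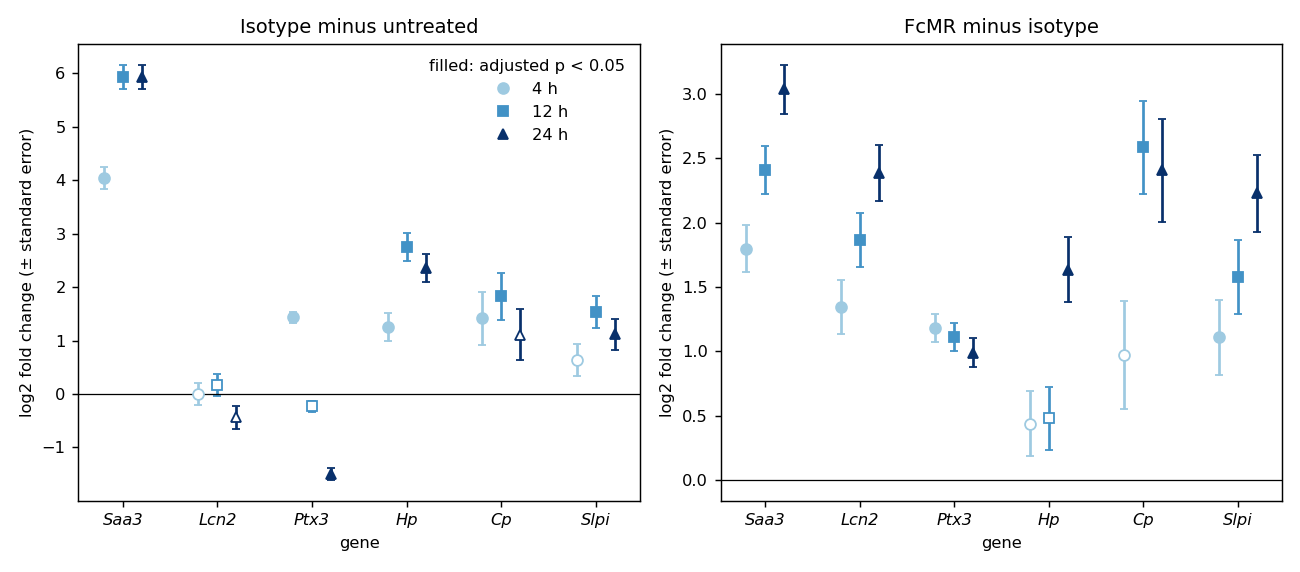
Log2 fold changes (points) with standard errors (bars) of the 6 genes for isotype against untreated (left) and FcMR against isotype (right) at 4, 12 and 24 h; filled symbols have an edgeR adjusted p under 0.05. All 18 estimates for FcMR against isotype lie above 0, whereas Ptx3 and Lcn2 lie below 0 against untreated cells at 24 h.

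Counted together, 4 of the 6 genes were higher with FcMR than with isotype at 4 h, 5 at 12 h and 6 at 24 h, and none was lower. Of all genes tested, 8.62% were called higher with FcMR at 4 h, 8.61% at 12 h and 11.4% at 24 h, and 9.13%, 7.49% and 9.44% were called lower. The median log2 difference of the 6 genes was 1.14, 1.72 and 2.31 at the 3 times, where that of all genes tested was -0.07, -0.02 and 0.01. Because the genes were chosen with earlier results of these data known, these counts and medians describe them and test nothing. Leaving out FcMR 12 h replicate 1 and isotype 4 h replicate 3 together, whose library numbers stand out of order in the titles, gave the same 4, 5 and 6 calls. At 4 h the split of all calls depended on scaling: 1161 genes were higher and 1229 lower with TMM, against 1412 and 839 with RLE factors.

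Isotype against untreated cells called 4 of the 6 genes higher at 4 h (Saa3, Ptx3, Hp and Cp), where 20.4% of all genes were. At 12 h it called 4 higher (Saa3, Hp, Cp and Slpi) beside 22% of all genes, and at 24 h 3 higher (Saa3, Hp and Slpi) beside 21.3%. Ptx3 was the 1 gene of the 6 called lower at 24 h, as were 20.9% of all genes. These comparisons and those of FcMR with isotype share the isotype libraries, so a high isotype value raises one and lowers the other.

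Whether the FcMR difference itself changed between the 3 times was tested jointly. Saa3 passed, with an edgeR adjusted p of 0.00994, and its differences of 1.8, 2.41 and 3.04 rank in order of time. Hp passed at an edgeR adjusted p of 0.0436, with differences of 0.44, 0.48 and 1.63. That call for Hp was lost when any of 14 of the 18 treated libraries was left out, all but isotype 4 h replicates 2 and 3, FcMR 12 h replicate 3 and FcMR 24 h replicate 2, and in 5 of 10 other settings, among them RLE factors with an adjusted p of 0.0522. The other 4 genes did not pass: edgeR adjusted p were 0.0675 for Lcn2, 0.133 for Cp, 0.185 for Slpi and 0.716 for Ptx3. Lcn2 passed in edgeR without isotype 4 h replicate 2 (adjusted p 0.0444), FcMR 12 h replicate 1 (0.0377) or FcMR 24 h replicate 2 (0.0403), and Cp without isotype 4 h replicate 3 (0.0318). Among all genes tested, 11% passed this test.

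In the edgeR fit without further correction, no gene of the 6 passed for a single step from 4 to 12 h or from 12 to 24 h, where 5.39% and 1.73% of all genes did. At an unadjusted p under 0.05 edgeR gave 2 genes for the first step, Saa3 and Cp, and 2 for the second, Saa3 and Hp. DESeq2 called 0 and 1 of the 6 for these steps, and limma-voom 0 and 0. The step estimates from 4 to 12 h were 0.61 (SE 0.252) for Saa3 and 1.61 (SE 0.559) for Cp on the log2 scale. From 12 to 24 h they were 0.63 (SE 0.25) for Saa3 and 1.15 (SE 0.347) for Hp. Step calls depended on the setting. With GC correction, edgeR called Lcn2 for the first step (adjusted p 0.0163) and Hp for the second (0.00384). Among fits without 1 library, Saa3 passed for the first step without isotype 4 h replicate 2 (edgeR adjusted p 0.0444), Cp for the first without isotype 4 h replicate 3 (0.0258) and Hp for the second without FcMR 24 h replicate 2 (0.0101).

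Libraries of one group differed in the representation of GC-rich genes, and in some groups the levels of most of the 6 genes followed it. A GC tilt was computed from log2 levels relative to the mean of all libraries, as the average of the 10% GC-richest genes minus that of the 10% GC-poorest. In FcMR-treated cells at 24 h it was -0.36, -1.32 and 0.43 in replicates 1, 2 and 3, and Saa3, Lcn2, Hp and Slpi were lowest in replicate 2 and highest in replicate 3. Cp, with 41.6% GC the poorest of the 6 where the others have 49.4% to 55.6%, was in the reverse order. In isotype-treated cells at 4 h the tilt was -0.85, -1.64 and 0.66, and Saa3, Lcn2, Ptx3, Hp and Slpi were again lowest in replicate 2 and highest in replicate 3. After a correction for GC content the 24 h differences between FcMR and isotype were 2.99 for Saa3, 2.43 for Lcn2, 1.01 for Ptx3, 1.70 for Hp, 2.25 for Cp and 2.28 for Slpi on the log2 scale, all called.

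Several of these proteins are also neutrophil products, so neutrophil markers were examined beside them. All 11 passed the filter, and their summed level was 753 to 833 CPM in untreated libraries, 456 to 658 with isotype and 471 to 567 with FcMR at 4 h, and 403 to 461 and 230 to 295 at 12 h. At 24 h it was 1260 to 1370 CPM with isotype and 432 to 564 with FcMR, of which the collagenase gene Mmp8 made up a mean of 1250 and 451 CPM. FcMR against isotype called 0 of the 11 higher and 0 lower at 4 h, 1 higher and 1 lower at 12 h, and 0 higher and 3 lower at 24 h. Isotype against untreated called 8 lower at 4 h, 9 at 12 h and 10 at 24 h, and 0, 0 and 1 higher. Of all genes tested, 15.2%, 19.6% and 20.9% were lower and 20.4%, 22% and 21.3% higher in these comparisons. Mmp8, at a mean of 370 CPM in untreated libraries, was the 1 marker higher at 24 h, while Ngp went from 264 to 26.0 CPM with isotype. The other markers differed widely in level at 24 h. With FcMR, Csf3r and Ngp had means of 19.3 and 13.8 CPM, and Ly6g, Elane and Mpo 0.156, 0 and 0.0343 CPM. With isotype, Csf3r and Ngp had means of 20.1 and 26.0 CPM, and Ly6g, Elane and Mpo 0.242, 0.0327 and 0.247 CPM. Lcn2, Hp and Slpi were at 382, 405 and 335 CPM with FcMR at 24 h. Stromal markers summed to 3.8 to 4.92 CPM with FcMR and 0.644 to 1.18 with isotype at 24 h, and hepatocyte markers to at most 8.3 CPM in any library. Their part in the results was not tested.

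Other acute-phase genes were examined as a list of 32, of which 27 were found in the expression table and 13 passed the filter. With FcMR against isotype 8 were higher at 4 h and 8 at 12 h, with none lower, and 7 were higher and 2 lower at 24 h. The shares of all genes tested at these times were 8.62%, 8.61% and 11.4% higher and 9.13%, 7.49% and 9.44% lower. The median over these 13 genes was 0.76, 0.79 and 0.98 on the log2 scale at the 3 times, where that of all genes tested was -0.07, -0.02 and 0.01. The median at 24 h was 0.77 without Alb, which had at most 3 counts in every isotype library of 24 h. Cfb, encoding complement factor B, was higher by 1.21, 1.20 and 2.12 at the 3 times, all called. C3, encoding the central complement protein, was higher at 4 and 24 h, by 0.76 and 0.98, and Serpina3g, encoding a protease inhibitor of leukocytes, at 4 h only, by 1.31. Orm1 and Orm2, encoding the acid glycoproteins, were called at 12 and 24 h, by 0.91 and 2.15 for Orm1 and 1.27 and 2.90 for Orm2. Il1rn, encoding the IL-1 receptor antagonist, was higher by 1.11, 0.79 and 0.41, all called.

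The 2 genes lower at 24 h were Trf, encoding transferrin, at -0.32, and Fn1, encoding fibronectin, at -1.54. Fn1 was among the genes called higher at 4 h, by 0.55, and was not called at 12 h. The serum amyloid A genes Saa1, Saa2 and Saa4, relatives of Saa3, had at most 8, 4 and 3 counts in any library. Crp had at most 3 counts and Hpx, encoding the haem carrier hemopexin, at most 29, and neither passed the filter, nor did Steap4. Serpina3n was not found by its symbol in the expression table.

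**Figure D3:**
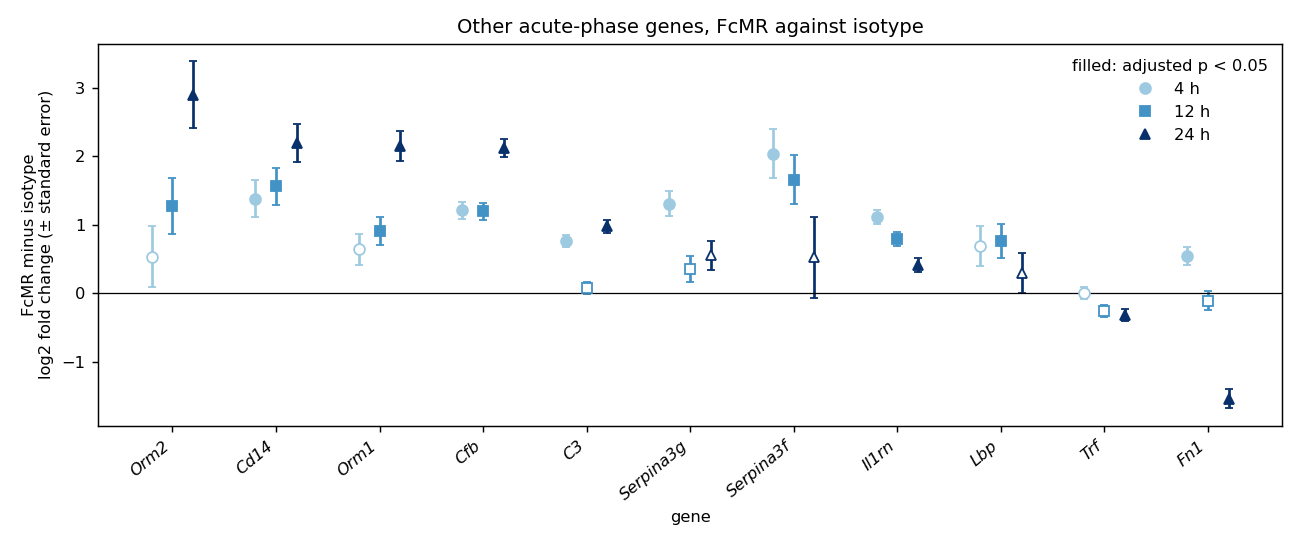
Log2 fold changes (points) with standard errors (bars) of FcMR against isotype at 4, 12 and 24 h for 11 of the 13 tested genes of the acute-phase list; filled symbols have an edgeR adjusted p under 0.05. Orm2 has the largest difference of the genes shown at 24 h, where Trf and Fn1 lie below 0.

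A second list held 22 other secreted antimicrobial and whey-acidic genes, of which 20 were found in the expression table and 19 passed the filter. With FcMR 1 of them was higher at 4 h and 2 at 12 h, with none lower, while at 24 h 2 were higher and 3 lower. As shares of the list these counts of higher genes are near the 8.62%, 8.61% and 11.4% of all genes, and the 3 lower ones stand beside 9.44%. Wfdc21, a whey-acidic domain gene like Slpi, was the gene called at all 3 times, at 0.80, 0.65 and 1.06, and S100a8, encoding a calprotectin subunit, was called at 12 and 24 h, at 0.53 and 0.69. Ltf and Ngp, genes of neutrophil granule proteins, were lower at 24 h by -2.27 and -0.91, and the third gene lower was Lyz2. S100a9, Camp, Pglyrp1, Wfdc17 and Chil3 did not pass at any time, with log2 differences from -0.26 (Pglyrp1 at 12 h) to 0.64 (Camp at 4 h). The list's median at 24 h was -0.20, or 0.28 without the 5 genes that had at most 3 counts in every library of a group. Against untreated cells 7, 13 and 16 of the 19 were lower with isotype at 4, 12 and 24 h, and 1, 0 and 1 were higher. Of all genes tested, 15.2%, 19.6% and 20.9% were lower with isotype at these times.

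Genes of partners, receptors and targets of the 6 proteins were another list, of 27, of which 23 passed. With FcMR 2 were higher and 2 lower at 4 h, 4 and 2 at 12 h, and 5 and 8 at 24 h. At 4 h these shares are near those of all genes, 8.62% higher and 9.13% lower. For all genes the shares were 8.61% higher and 7.49% lower at 12 h, and 11.4% higher and 9.44% lower at 24 h. Fpr2, encoding a formyl peptide receptor that serum amyloid A can bind, was higher by 0.85, 1.56 and 2.62 at the 3 times, all called. C1qb, encoding a chain of the C1q that pentraxin 3 binds, was lower at 12 and 24 h, by -0.98 and -1.91. C1qa and C1qc, encoding the other chains, were called lower at 24 h only, by -1.68 and -2.2. Hmox1, encoding the haem oxygenase that degrades haem, was higher at 12 and 24 h, by 0.65 and 1.09. Slc40a1, encoding ferroportin, the iron exporter that works with ceruloplasmin, was lower by -0.88 at 4 h and -0.62 at 24 h. Lrp1, a receptor for protease and haem complexes, and Grn, encoding the progranulin that Slpi protects from elastase, did not pass at any time, at -0.09, -1.08 and -1.07 for Lrp1 and 0.28, -0.17 and -0.43 for Grn.

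Other partners were near the floor of these libraries. Cd163, the receptor of haptoglobin-haemoglobin complexes, had at most 17 counts, Slc22a17, a lipocalin 2 receptor gene, at most 27, and Tnfaip6, whose product binds pentraxin 3 in matrix, at most 28. None of these passed the filter. Elane, the elastase that Slpi inhibits, was at 5.45 CPM on average in untreated libraries. At 24 h its mean was 0.0327 CPM with isotype and 0 with FcMR, a difference that was not called.

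The last list, of 23, held cytokines and transcription factors known to act on acute-phase genes, with cytokine receptors, JAK kinases and Socs3. Of these 22 passed. With FcMR 12 were higher and 4 lower at 4 h, and 11 higher and 3 lower at both 12 and 24 h. Of all genes tested, 8.62%, 8.61% and 11.4% were higher and 9.13%, 7.49% and 9.44% lower at the 3 times. Nfkbiz, encoding an IkappaB protein of the nucleus that acts on Lcn2, was higher by 2.12, 1.34 and 1.24, and Il6 by 3.31, 4.01 and 3.40. The receptor genes Il6ra and Il6st were called lower at all 3 times, by -1.0, -0.55 and -0.59 and by -0.74, -0.88 and -0.60. For Il1b the differences were 2.57, 4.00 and 4.37, all called, and for Tnf 2.45, 1.74 and 0.55, all called. Stat3 passed only at 4 h, at 0.88. Cebpb and Cebpd, encoding factors that bind C/EBP motifs, did not pass at any time, with Cebpb at -0.06, 0.49 and 0.37 and Cebpd at 0.10, -0.03 and 0.09, while Cebpa was lower at all 3 times, by -1.30, -0.79 and -0.79.

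Across the 21 libraries Ptx3 had a course unlike those of the other genes. Saa3, Lcn2, Hp, Cp and Slpi correlated with each other at 0.618 (Lcn2 and Hp) to 0.947, with Cp at 0.722 to 0.811. On log2 CPM, Pearson's r was 0.947 between Saa3 and Hp, 0.908 between Saa3 and Slpi, 0.9 between Hp and Slpi and 0.877 between Lcn2 and Slpi. Ptx3 correlated with the others at -0.261 to 0.35. These values are a description over libraries that share groups and GC tilt, and carry no test.

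**Figure D4:**
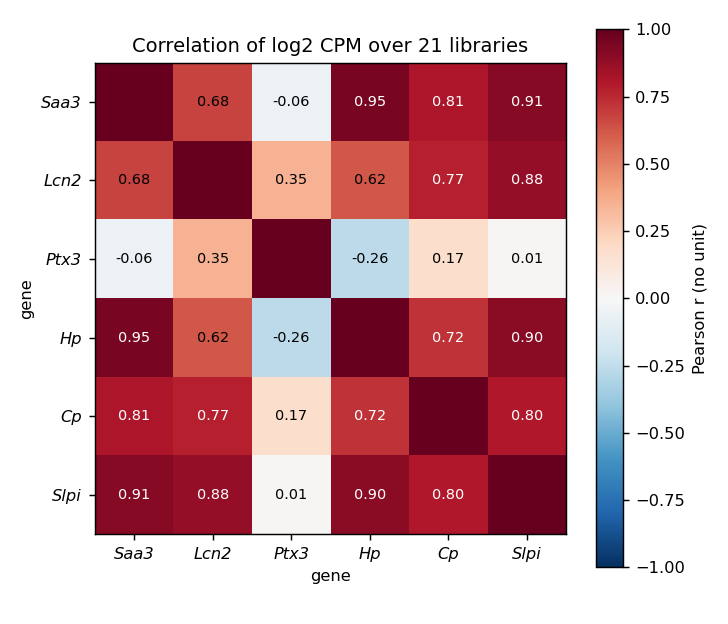
Pearson correlation (colour and number) of log2 CPM over the 21 libraries for each pair of the 6 genes, listed on both axes. Saa3, Hp and Slpi correlate at 0.9 and above, and the row of Ptx3 holds values from -0.26 to 0.35.

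The genes whose course over the 21 libraries was most like each member were taken from 10368 genes, as a description with no test. For Saa3 these were Procr (r = 0.992), Cfb (0.99) and Ccl5 (0.98). Procr, the endothelial protein C receptor gene, went from a mean of 40.3 CPM in untreated cells to 272 with isotype and 666 with FcMR at 24 h. For Lcn2 they were Snx18 (0.973), Dgat2 (0.938) and Cd14 (0.935), and Cd14, encoding the co-receptor for bacterial lipopolysaccharide, had means of 342 CPM in untreated cells, 180 with isotype and 825 with FcMR at 24 h. For Ptx3 they were Cxcl10 (0.99), Cd69 (0.986) and Tnf (0.984), and Cxcl10, a chemokine gene, had means of 502 CPM with isotype and 2230 with FcMR at 4 h but 5.89 and 19.1 at 24 h. The genes most like Hp were Susd2 (0.977), C1ra (0.967) and Acp5 (0.956), and C1ra, encoding a protease of the complement C1 complex, went from a mean of 7.11 CPM in untreated cells to 78.9 with FcMR at 24 h. Cp was most like Spic (0.947), Gphn (0.946) and Acpp (0.927), and Spic, a transcription factor gene of iron-recycling macrophages, had its highest mean with FcMR at 12 h, 71 CPM, as Cp did. Slpi was most like Ifnar2 (0.961), Pgm1 (0.954) and Kdm4a (0.942), all of which varied less than Slpi itself, with Ifnar2 between group means of 63.6 and 153 CPM.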

How the data were processed

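RNA of 21 libraries (TruSeq RNA kit v2, 100 ng input, 75 bp single-end reads, per the labels' protocols) is covered by 2 gene tables. The submitters' processing notes name CASAVA 1.8.2, kallisto 0.44.0 and DESeq2 and the builds mm10 and GRCm38, without saying what each step did. The first deposited table holds estimated counts, as kallisto makes them; the authors deposited whole numbers, so rounding changed none. The second deposited table holds normalized expression on a linear signal scale and was used only as an alternative, as log2(value + 1) in limma. Strand-specific counting is not given in the sources used here.

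Gene IDs were matched without version to GENCODE M21 (GRCm38): 23187 of 23250 had a symbol, 21231 with the same version. The 6 genes, the related lists and the marker lists were chosen with earlier results of these data known. Named genes are the 6, the 3 genes of highest correlation with each, and the list genes that the plan gives by name. Trf, Fn1, Orm2, Crp, Alb, C1qa, C1qb, C1qc, Cebpa, Il6ra, Il6st and single marker genes were named after their values were seen. The counts and medians of the acute-phase list include 1 gene that is not reported here.

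The test was edgeR 4.0.16 (R 4.3.3), quasi-likelihood, 1 fit of 21 libraries with a coefficient per group, TMM scaling and filterByExpr at 10 counts, which left 13468 genes. Calls are at a Benjamini-Hochberg adjusted p under 0.05 over all of them. Log2 CPM for correlations used a prior count of 2 and genes of a mean of at least 1. Replicates of a group correlated at 0.92 to 0.987 and differed by more than counting allows (chi-square of at least 2.98 per degree of freedom), so each counted once. Alternatives were RLE factors, no filter, DESeq2 1.42.0, limma-voom (limma 3.58.1), a filter at a mean of 10 counts, the 6 libraries compared alone, the replicate number as a block, a GC correction (spline with 5 degrees of freedom), the authors' normalized values, and leaving libraries out. Promoter windows are RefSeq's; none was matched for Hp.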

Additional observations from a re-analysis of the deposited data

Results flagged for a closer look

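For 2 of the 6 genes the difference between FcMR and isotype varied between 4, 12 and 24 h by edgeR's joint test. Saa3 had an adjusted p of 0.00994, with log2 differences of 1.8, 2.41 and 3.04. It was called in all 28 alternatives. Hp had an adjusted p of 0.0436, with 0.44, 0.48 and 1.63, and kept that call in 9 of 28 alternatives.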

How the results depend on the processing

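For FcMR against isotype, 298 of 306 alternative values of the 6 genes kept direction and side of the threshold, 2 lost the call, 6 gained one and 0 turned. The call of Slpi at 4 h (1.11) was lost in the fit of the 6 libraries alone (1.11), with 0.89 to 1.54 over fits without 1 library. Calls were gained at 4 h for Hp with replicate block and GC correction (0.389) and for Cp with the replicate block (0.91), GC correction (1.12) and both (1.06), and at 12 h for Hp with GC correction (0.669) and with both (0.674). The cause was not tested in these or in the cases below.

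For isotype against untreated, Lcn2 at 4 h (0.0032) turned to -0.0119 with RLE factors, -0.0923 without a filter, -0.00276 at a mean of 10 counts, -0.0125 in DESeq2, -0.021 in limma-voom, -0.0166 with 6 libraries, -0.0221 with the replicate block, -0.0635 on the authors' values and -0.314 without both libraries out of title order (single libraries left out: -0.314 to 0.128). Cp at 4 h lost its call without a filter (1.3), in limma-voom (1.22) and with 6 libraries (1.43; 1.1 to 1.82 with 1 left out), and at 12 h on the authors' values (1.14). Calls were gained by Slpi at 4 h with GC correction (0.879) and with the block too (0.854; 0.199 to 0.875 with 1 left out); Ptx3 at 12 h in DESeq2 (-0.249), with 6 libraries (-0.252), GC correction (-0.308) and with the block too (-0.31). At 24 h they were gained by Lcn2 with 6 libraries (-0.396), the replicate block (-0.429), GC correction (-0.351), both (-0.343) and without both libraries (-0.438), and by Cp with the block (1.08), GC correction (1.07), both (1.05) and without both libraries (1.11; 0.91 to 1.39 with 1 left out).

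Step estimates that turned were, from 4 to 12 h, Ptx3 with GC correction (0.0408, with block 0.0414) and Hp with RLE factors (-0.0119), no filter (-0.0428), DESeq2 (-0.0131), the authors' values (-0.0346), without both libraries (-0.0913) and without 1 (-0.187 to 0.234). From 12 to 24 h Cp turned on the authors' values (0.045), without both libraries (0.0571) and without 1 (-0.459 to 0.06). With the replicate block and GC correction together 4 of the 6 genes passed for the first step (Saa3, Lcn2, Cp and Slpi) and 3 for the second (Lcn2, Hp and Slpi), and the block alone called Cp for the first (1.6). The joint test's adjusted p for Lcn2 was 0.0347 in DESeq2, 0.0206 with the block, 0.000378 with GC correction, 1.48e-05 with both and 0.0377 to 0.152 with 1 library left out. For Hp it was 0.0522 with RLE factors, 0.0955 without a filter, 0.0537 in limma-voom, 0.0819 on the authors' values, 0.0541 without both libraries and 0.00259 to 0.111 with 1 left out. For Cp it was 0.00851 with the block, 0.0063 with GC correction too, 0.0373 without both libraries and 0.0318 to 0.4 with 1 left out, and for Slpi 0.00257 with GC correction and 6.47e-05 with the block too. The joint test called 1 of the 6 genes with RLE factors, without a filter, in limma-voom and on the authors' values, 4 with the block, 4 with GC correction, 5 with both and 1 to 3 with 1 library left out.

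Over all genes, FcMR against isotype at 4 h called 2390 genes, but 791 with 6 libraries, 3985 with GC correction, 4092 with the block too and 3942 without both libraries. At 12 h it called 2169, and 3552 and 3706 with GC correction without and with the block, and at 24 h 2813, and 4279 with both. Isotype against untreated at 4 h called 4792, and 2837 with 6 libraries. The step from 4 to 12 h called 726 genes, 349 without a filter, 400 on the authors' values, 1828 and 2008 with GC correction without and with the block, and 355 to 1474 with 1 library left out. The step from 12 to 24 h called 233, and 154, 138, 715 and 833 in the same settings and 363 in DESeq2. The joint test called 1484, and 925 without a filter, 2620 without both libraries, 3132 and 3353 with GC correction without and with the block, and 973 to 2322 with 1 left out. Without a filter the median of all genes for isotype against untreated at 4 h moved to -0.12. Same-numbered libraries did not deviate together (mean correlation -0.07 to 0.11 over the 6 comparisons, and not every pair over 0.1 in any), so the replicate number was not taken to pair them. Cp, at 5 to 237 counts, is the gene that depth limits most.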
